A study of Mus musculus with 10 samples.

Results

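The genes of 10 secreted products of T cells other than interleukin-2 were followed at the RNA level, namely Ifng, Il3, Csf2, Lif, Ccl3, Ccl4, Xcl1, Il4, Il21 and Il16. They were taken by name as effector cytokine and chemokine genes, and all 10 were found among the 45321 genes of the deposited tables. The cells were naive CD4+ T cells from C57BL/6 spleens, sorted by surface markers before any treatment, and no label gives the animals' age or an engineered allele. They received DMSO (the vehicle) or 12.5 µM Compound 10 for 1 h, a small molecule that the series' title describes as acting on the NFAT:AP-1 complex on DNA. They were then either kept unstimulated or given 10 nM PMA with 1 µM ionomycin for 2 h. Of the 10 libraries, 3 were unstimulated vehicle cells, 2 unstimulated cells with Compound 10, 2 stimulated vehicle cells and 3 stimulated cells with Compound 10. All 4 groups shared the sort and the pretreatment step, and DMSO alone was the control in both states.

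Helper T cells act on other cells mainly through the cytokines they secrete after activation. PMA activates protein kinase C and ionomycin raises intracellular calcium, so together they switch on AP-1 and NFAT without engaging the T cell receptor. NFAT and AP-1 bind many cytokine promoters and enhancers as a cooperative complex, while NFAT can also act with other partners or alone. Naive T cells carry little or no mRNA of most effector cytokines, and Il16 is an exception because resting lymphocytes already express it.

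The 10 libraries held 10694591 to 33486259 estimated counts. Markers of naive CD4 T cell identity (10 genes such as Cd4 and Ccr7) summed to 2600 to 3492 CPM (normalised read counts, scaled to the library total with TMM factors). The NK cell genes Ncr1 and Klra8 and the mast cell and basophil genes Fcer1a and Mcpt8 had 0 counts in every library. Another NK cell gene, Klrb1c, had 27 counts over all libraries and 0 in every vehicle library. It was at 0.0251 to 0.511 CPM in unstimulated and 0.221 to 0.796 CPM in stimulated Compound 10 libraries. Klrk1, Klre1 and Gzma had 19, 9 and 8 counts over all libraries. All 6 mast cell or basophil markers summed to 0.287 to 0.932 CPM in unstimulated vehicle and 1.98 to 2.46 CPM in unstimulated Compound 10 libraries. After stimulation the sums were 0.515 to 1.47 CPM under vehicle and 0.943 to 1.44 CPM with the compound. Most of this was Kit, which was higher with Compound 10 at rest (2.48 on the log2 scale, adjusted p = 0.0298, edgeR's quasi-likelihood test). Cd8a did not exceed 0.177 CPM. The other CD8 gene, Cd8b1, was at 2.41 to 6.68 CPM in unstimulated, 10.3 to 10.6 CPM in stimulated vehicle and 2.54 to 7.11 CPM in stimulated Compound 10 libraries. B cell markers (6 genes) summed to 3.98 to 8.75 CPM over all libraries. Myeloid markers (8 genes) summed to 3.56 to 6.52, 9.52 to 19.6, 7.60 to 10.1 and 11.1 to 25.98 CPM in unstimulated vehicle, unstimulated Compound 10, stimulated vehicle and stimulated Compound 10 libraries, and regulatory T cell markers (5 genes, with the activation-induced Il2ra) to 28.7 to 39.5, 35.2 to 38.1, 175 to 214 and 51.5 to 82.7 CPM. Most of the myeloid sum was the transcription factor gene Cebpb, at 2.465 to 4.70, 6.96 to 15.9, 7.21 to 8.9 and 9.4 to 22.4 CPM in the same order. Fcgr3 was at 0.0287 to 0.373, 1.41 to 2.21, 0.129 to 0.260 and 0.343 to 1.66 CPM, again in that order. Fcgr3 and Cebpb were called higher with Compound 10 at rest (3.32, adjusted p = 0.0377, and 1.55, 0.0467, edgeR). In stimulated cells they were not called (1.93, 0.240, and 1.09, 0.107, edgeR). Itgam was at 0 to 0.657, 0.753 to 0.766, 0 and 0 to 1.33 CPM. Csf1r was at 0.110 to 1.23, 0.255 to 0.603, 0 to 0.519 and 0.221 to 0.354 CPM. Lyz2, Cd14, S100a8 and S100a9 had 16, 16, 3 and 0 counts over all libraries. The 11 memory or effector T cell markers summed to 81.3 to 83.9 CPM in unstimulated vehicle, 110.4 to 132 CPM in unstimulated Compound 10, 237 to 249.97 CPM in stimulated vehicle and 237 to 248 CPM in stimulated Compound 10 libraries. Whether libraries that share a group stem from different mice or cultures is not stated, so p-values measure the spread between these libraries, which may be technical. In such bulk samples, fewer expressing cells and less RNA per cell cannot be told apart.

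Resting cells held almost none of these transcripts except Il16, and stimulation turned most of them on. Compound 10 then divided the set. In stimulated cells Il3, Xcl1 and Lif were lower with the compound, Ifng and Il16 were higher, and Csf2, Ccl3, Ccl4 and Il21 were not called. Il4 stayed at a few counts and did not pass the filter on low counts, so 9 of the 10 members were tested. A gene is called where edgeR's quasi-likelihood test gave an adjusted p under 0.05 (Benjamini-Hochberg over the 14417 genes tested).

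With stimulation under vehicle, 8 of 9 tested members were higher and 1, Il16, was lower, against 19.5% of all tested genes higher and 19.4% lower (39.0% in either direction). With stimulation in the presence of Compound 10, 7 were higher and 1 was lower, against 12.8% and 13.7% of all genes (26.5% in either direction). The 5617 genes called under vehicle became 3568 without the first stimulated vehicle library, and the 3816 called with Compound 10 became 2347 without the second unstimulated Compound 10 library. For several members only the stimulated groups carried counts, so those members passed the filter through the group in which they were high, and the counts are a description. Comparing Compound 10 with vehicle in stimulated cells, 2 members were higher and 3 were lower, against 10.4% of all genes higher and 12.8% lower (23.2% in either direction). Of these 5 calls, those of Il3, Lif and Ifng rested on both stimulated vehicle libraries. Leaving out the first of them left 1 member called (Xcl1) and 1589 of all genes in place of 3350, and leaving out the second left 2 members (Xcl1 and Il16) and 1722 genes. The median log2 fold change of the 9 tested members in this comparison was 0.26, beside 0.04 over all genes tested.

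The split of all genes depended on scaling, while that of the members changed only through Il21. With upper-quartile factors Il21 was called higher for stimulation with Compound 10 (3.36, adjusted p = 0.0494, edgeR). With no scaling beyond library totals, the median gene moved to -0.83 (vehicle) and -0.60 (Compound 10) with stimulation, and the calls were 1202 higher and 6610 lower, and 810 higher and 5219 lower. In stimulated cells upper-quartile factors moved the median gene to 0.18 and gave 2090 genes higher and 1528 lower with the compound. Each of the 9 tested members kept its direction under both alternatives in all 3 of these comparisons.

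**Figure D1:**
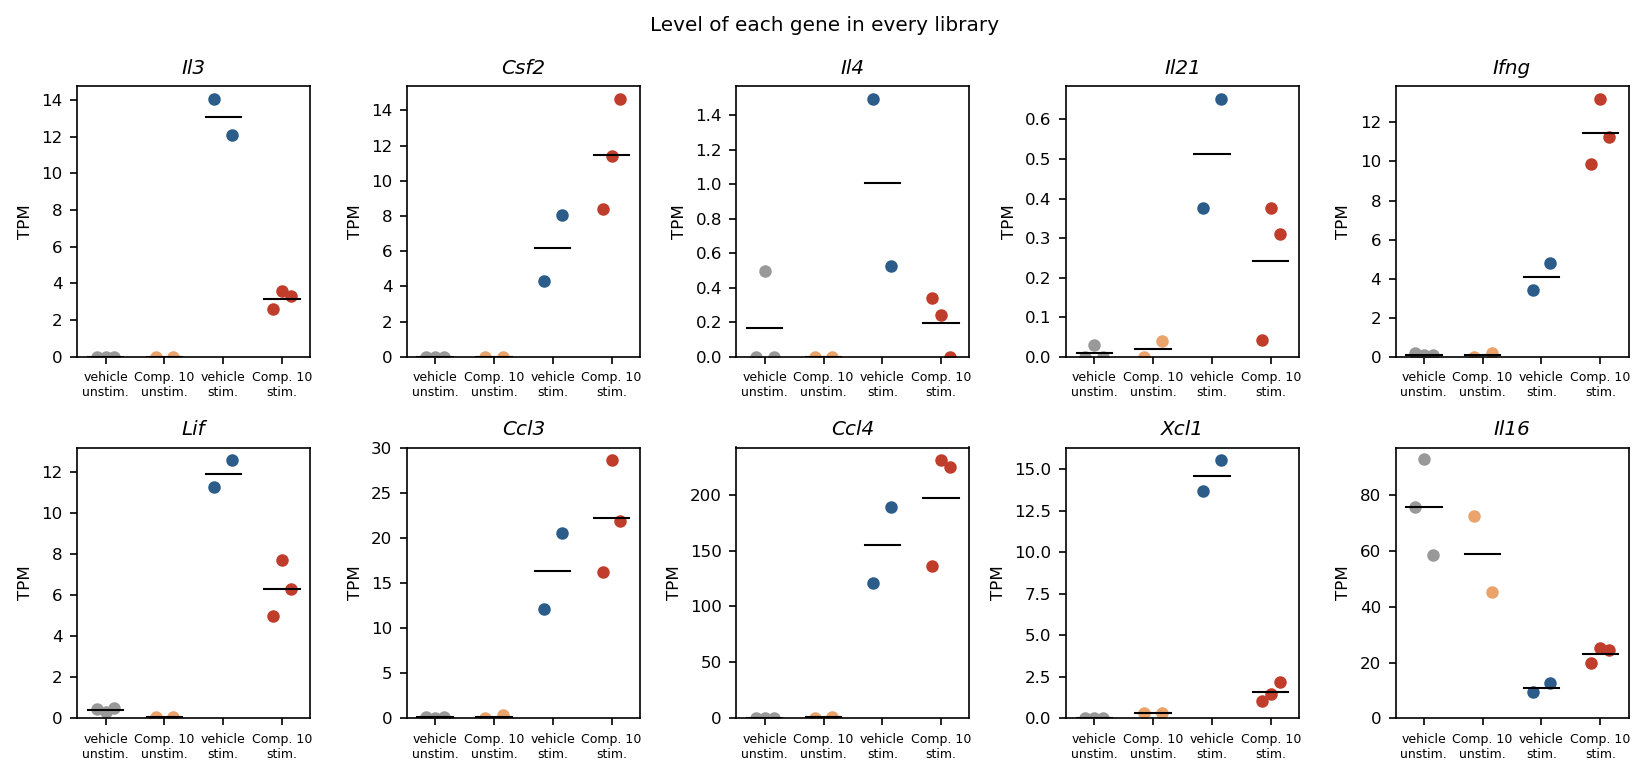
Level of each of the 10 genes in every library, in TPM (length-normalised transcript abundance, linear axis that differs between panels). The groups hold 3 unstimulated vehicle, 2 unstimulated Compound 10, 2 stimulated vehicle and 3 stimulated Compound 10 libraries. Points are libraries and lines are group means. Il3, Xcl1 and Lif are lower in all 3 stimulated Compound 10 libraries than in both stimulated vehicle libraries, and Ifng and Il16 are higher in all 3.

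Levels of different genes were compared in TPM, which divides by transcript length. In stimulated vehicle cells Ccl4 was far above the rest at 154.9 ± 47.8 TPM (SD, n = 2). Ccl3, Xcl1, Il3, Lif and Il16 followed within a narrow band, at means of 16.4, 14.6, 13.1, 11.9 and 10.95 TPM, and neighbours in that order overlapped between libraries. Csf2 (6.17 TPM) and Ifng (4.09 TPM) came next and overlapped each other, and Il4 (1.01 TPM) and Il21 (0.513 TPM) were lowest. In stimulated Compound 10 cells the order was Ccl4 (197 TPM), Il16 (23.2), Ccl3 (22.3), Csf2 (11.5), Ifng (11.4), Lif (6.31), Il3 (3.16) and Xcl1 (1.57), with Il21 (0.242) and Il4 (0.195) last. There the neighbours Il16 and Ccl3, Csf2 and Ifng, and Il21 and Il4 overlapped, and the other neighbours did not. Xcl1 and Il3 thus moved from among the middle genes of the set to below Csf2, Ifng and Lif.

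**Figure D2:**
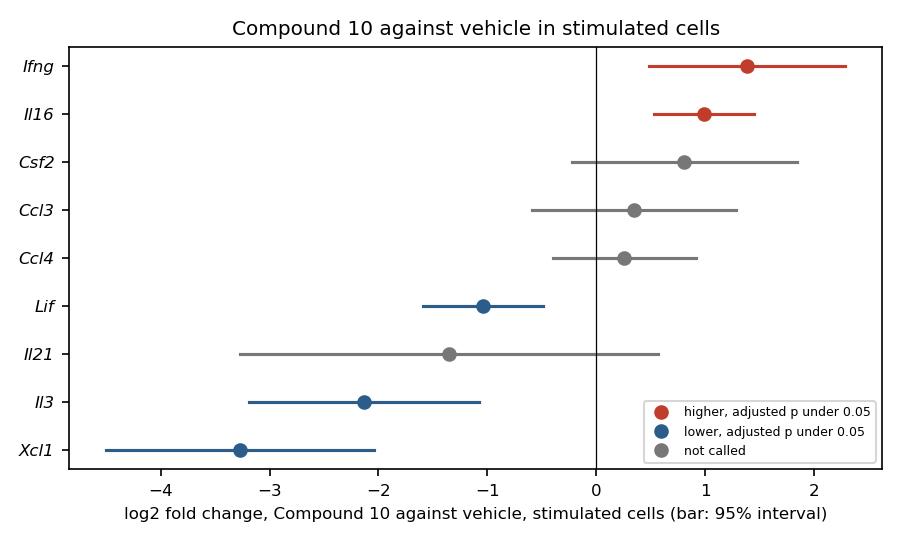
Log2 fold change of Compound 10 (n = 3) against vehicle (n = 2) in stimulated cells for the 9 tested genes, with 95% intervals from the fit. Red marks genes called higher, blue genes called lower and grey genes not called. The interval of Xcl1 runs from -4.50 to -2.04 and that of Ifng from 0.48 to 2.28, while those of Csf2, Ccl3, Ccl4 and Il21 span 0.

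Promoter windows of the 5 genes that differed with the compound in stimulated cells are shown because they respond in opposite directions. Each window is RefSeq sequence of build GRCm38.p6 from 250 bases before to 50 bases after a gene's start, and 9 of the 10 members matched an entry (all but Ccl4), with 12 windows in all. The windows are Il3 (chr11:54267230-54267529, minus strand), Xcl1 (chr1:164935473-164935772, minus strand), Lif (chr11:4257318-4257617, plus strand), Ifng (chr10:118440796-118441095, plus strand) and the start of the short Il16 transcript (chr7:83655446-83655745, minus strand). They are written 5′ to 3′ on the gene's strand, and capitals mark GGAAA, the core of NFAT sites, on either strand (TTTCC where it lies on the other strand) and TGANTCA, the AP-1 motif.
Il3: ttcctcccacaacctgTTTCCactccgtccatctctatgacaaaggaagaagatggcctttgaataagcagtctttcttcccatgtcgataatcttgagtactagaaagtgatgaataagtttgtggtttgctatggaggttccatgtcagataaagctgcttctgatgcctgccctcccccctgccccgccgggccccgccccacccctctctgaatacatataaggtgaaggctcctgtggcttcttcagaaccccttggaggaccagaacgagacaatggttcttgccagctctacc
Xcl1: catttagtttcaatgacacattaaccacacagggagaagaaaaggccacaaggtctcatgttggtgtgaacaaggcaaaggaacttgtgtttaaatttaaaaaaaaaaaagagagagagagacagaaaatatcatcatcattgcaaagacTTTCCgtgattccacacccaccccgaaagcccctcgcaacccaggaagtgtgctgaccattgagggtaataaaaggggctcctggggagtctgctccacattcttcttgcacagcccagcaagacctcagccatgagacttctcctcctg
Lif: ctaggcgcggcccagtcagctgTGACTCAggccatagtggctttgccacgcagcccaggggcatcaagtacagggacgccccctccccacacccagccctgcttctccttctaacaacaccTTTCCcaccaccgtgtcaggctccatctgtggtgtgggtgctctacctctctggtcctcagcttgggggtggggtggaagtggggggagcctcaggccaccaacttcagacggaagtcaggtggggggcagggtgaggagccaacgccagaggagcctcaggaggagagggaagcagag
Ifng: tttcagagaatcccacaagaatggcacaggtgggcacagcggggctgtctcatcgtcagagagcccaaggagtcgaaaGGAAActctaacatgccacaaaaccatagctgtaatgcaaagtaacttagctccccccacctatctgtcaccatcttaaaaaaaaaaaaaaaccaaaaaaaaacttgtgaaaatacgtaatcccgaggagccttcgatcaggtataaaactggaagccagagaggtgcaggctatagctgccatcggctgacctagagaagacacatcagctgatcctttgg
Il16: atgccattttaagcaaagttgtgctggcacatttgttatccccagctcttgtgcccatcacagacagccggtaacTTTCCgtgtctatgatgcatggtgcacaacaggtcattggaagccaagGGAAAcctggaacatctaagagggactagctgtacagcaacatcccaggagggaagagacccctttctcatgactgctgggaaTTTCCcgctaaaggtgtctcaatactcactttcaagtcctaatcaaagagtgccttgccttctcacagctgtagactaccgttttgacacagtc
The GGAAA motif was found once each in the windows of Il3 (position -234 from the start), Xcl1 (-100), Lif (-129) and Ifng (-172), and 3 times in that of the short Il16 transcript. Of these 5 windows the one of Lif also held TGANTCA, at position -228. Over all 32851 windows of this length in the table, 61.3% held GGAAA, 7.81% held TGANTCA and 9.42% held GGAAA 3 or more times. A GGAAA and a TGANTCA starting within 20 bases of each other occurred in 0.843% of all windows and in 0 of the 12 member windows. Only exact matches inside the windows were counted. Sites that depart from these motifs, and enhancers or other sequence outside the windows, were not covered, so composite sites may have been missed. A single GGAAA was thus found both in windows of genes that were lower and of a gene that was higher with the compound. The Lif window lies near the start of the transcript Lif-202, whose estimates overlapped between the stimulated groups. In stimulated cells the lower Lif estimate lay in Lif-201, which starts at 4267095 and has no window here. Among the other members, the windows of Csf2 and Il21 held GGAAA 3 times each, that of Ccl3 held it 2 times, and 1 of the 2 Il4 windows held it 5 times, a number reached or passed by 0.728% of all windows.

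Il3 and Csf2 encode interleukin-3 and GM-CSF, growth factors of blood progenitors and myeloid cells that signal through receptors with a shared beta chain. They are neighbours on chromosome 11 of mm10, both on the minus strand (Il3 at 54265303 to 54267277, Csf2 at 54247271 to 54249667), 15635 bases apart with 0 annotated genes between. All 5 unstimulated libraries had 0 counts of each. Il3 stood at 6.31 and 5.19 CPM in the 2 stimulated vehicle libraries (49 and 60 counts) and at 1.11, 1.37 and 1.42 CPM in the 3 stimulated Compound 10 libraries (10, 16 and 16 counts). Csf2 stood at 2.70 and 4.85 CPM under vehicle (21 and 56 counts) and at 4.97, 6.17 and 8.84 CPM with the compound (45, 72 and 100 counts). For Il3 every compound library lay below both vehicle libraries, whereas for Csf2 every compound library lay above both, with 4.85 and 4.97 CPM almost touching.

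Il3 was 4.39-fold lower with Compound 10, or -2.14 ± 0.46 (SE) with a Benjamini-Hochberg adjusted p of 0.0111 by edgeR's quasi-likelihood test. The call rested on both vehicle libraries, since without the first the value was -1.99 (adjusted p = 0.101, edgeR) and without the second -2.26 (0.0666). Csf2 differed by 0.81 ± 0.45 on the log2 scale (adjusted p = 0.245, edgeR), with a 95% interval from -0.23 to 1.84. Against a floor of 3 counts over the unstimulated group, stimulation under vehicle left Il3 at least 140.25-fold and Csf2 at least 99.1-fold higher. With Compound 10 the bounds were at least 24.3-fold for Il3 and at least 125-fold for Csf2.

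The divergence of the neighbours was also taken within each library, where scaling between libraries cancels. The ratio of Il3 to Csf2 in TPM was 3.27 and 1.505 in the stimulated vehicle libraries and 0.312, 0.312 and 0.224 in the stimulated Compound 10 libraries. Il3 exceeded Csf2 in both vehicle libraries and was below it in all 3 compound libraries, a 7.94-fold shift of the ratio. An exact permutation test was used whose two-sided p is 2 times the smaller one-sided p. With 2 libraries against 3 it cannot fall below 0.2, and this shift gave 0.2.

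**Figure D3:**
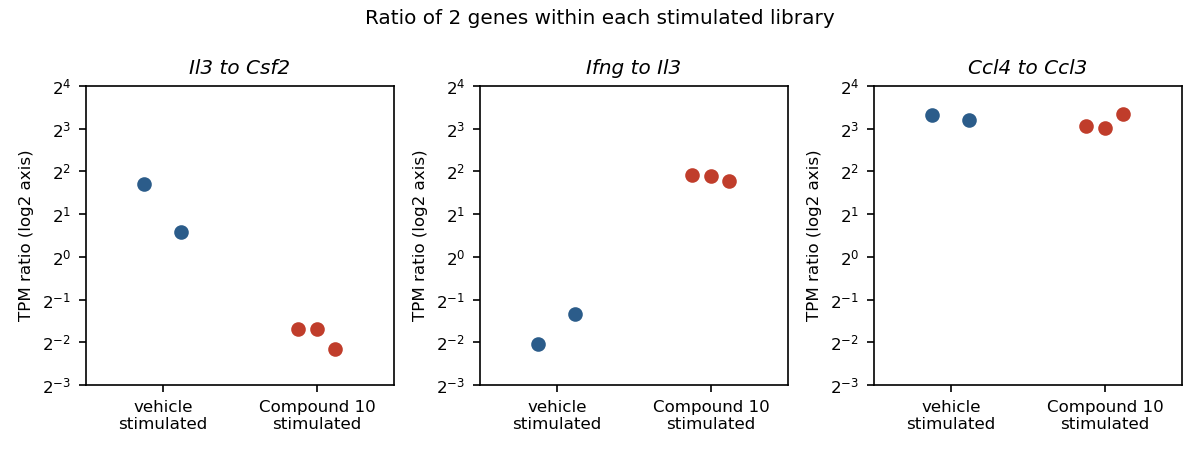
Ratio of 2 genes in TPM within each stimulated library (log2 axis), for vehicle (n = 2) and Compound 10 (n = 3), with 1 point per library. The ratio of Il3 to Csf2 falls from 3.27 and 1.505 to between 0.224 and 0.312, that of Ifng to Il3 goes from 0.242 and 0.395 to between 3.41 and 3.77, and that of Ccl4 to Ccl3 lies between 8.06 and 10.2.

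Ifng (chromosome 10, 118441046 to 118445892, plus strand) encodes interferon gamma, the signature cytokine of T helper 1 cells and an activator of macrophages. It had at most 2 counts in each unstimulated vehicle library and 0 and 6 counts in the unstimulated Compound 10 libraries. After stimulation it reached 3.61 and 4.85 CPM under vehicle (28 and 56 counts) and 9.84, 11.995 and 11.4 CPM with Compound 10 (89, 140 and 129 counts). The lowest compound library was above the highest vehicle library. Ifng rose with stimulation by 5.83 ± 0.54 under vehicle and by 6.68 ± 0.59 with the compound on the log2 scale. Without the second unstimulated Compound 10 library, which held all 6 counts of its group, the latter became 10.43. Between the stimulated groups Ifng was 2.61-fold higher with Compound 10 (1.38 ± 0.41, adjusted p = 0.0309, edgeR), and leaving out any 1 of the 5 stimulated libraries ended the call (values 1.19 to 1.63, adjusted p 0.0609 to 0.215 in those 5 fits).

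Within libraries the ratio of Ifng to Il3 in TPM was 0.242 and 0.395 under vehicle and 3.77, 3.71 and 3.41 with Compound 10. Vehicle cells thus held more Il3 than Ifng and compound-treated cells more Ifng than Il3, an 11.7-fold shift. The same permutation test gave p = 0.2, the smallest it can give here. Ifng was already called higher and Il3 lower in these libraries, so the ratio restates those calls and is no separate evidence. The memory or effector markers that were read beside it covered the same range in both stimulated groups (237 to 249.97 and 237 to 248 CPM). Most of each sum was Id2 (106 to 125 CPM under vehicle, 121 to 154 CPM with the compound) and Prdm1 (61.0 to 67.7 and 48.4 to 64.3 CPM). Both genes also rose with stimulation under vehicle, by 1.68 and 3.94 on the log2 scale. Single genes of the list did not all overlap between the stimulated groups. Cxcr3 lay at 1.13 to 1.16 CPM under vehicle and 1.97 to 2.65 CPM with the compound (adjusted p = 0.372, edgeR). Cd44 lay at 28.3 to 30.2 against 15.9 to 24.4 CPM (adjusted p = 0.105) and Itgae at 0.644 to 0.952 against 0.442 to 0.600 CPM (adjusted p = 0.488), and none of the 3 was called. The part of such cells in the Ifng level was not tested.

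Lif (chromosome 11, 4257557 to 4272514, plus strand) encodes leukaemia inhibitory factor, an interleukin-6 family cytokine that signals through gp130, the product of Il6st. It was the one induced member with a clear level at rest, at 1.04, 0.606 and 1.23 CPM in unstimulated vehicle libraries (19, 13 and 43 counts). In unstimulated Compound 10 libraries it was at 0.128 and 0.176 CPM (2 and 7 counts), below all 3 vehicle libraries. In stimulated cells it was at 43.4 and 44.6 CPM under vehicle and at 16.3, 24.2 and 23.4 CPM with the compound, again without overlap. Lif was therefore lower with Compound 10 in both states, by 2.56 ± 0.44 on the log2 scale at rest (5.88-fold, adjusted p = 0.00708, edgeR) and by 1.04 ± 0.25 after stimulation (2.06-fold, adjusted p = 0.0112, edgeR).

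At rest the value for Lif lost its call without the second Compound 10 library (-2.86, adjusted p = 0.0783, edgeR) and in a fit of the 2 unstimulated groups alone (-2.57, 0.0966). After stimulation it did so without the first (-1.06, 0.0768) or the second vehicle library (-1.01, 0.0881). The 2 effects of the compound on Lif did not pass the test of their difference (1.51 ± 0.52, adjusted p = 0.106, edgeR).

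Lif has 2 protein-coding transcripts in the annotation with different starts, and in stimulated cells the lower estimate with Compound 10 lay in one of them. The transcript Lif-201, which starts at 4267095, was estimated at 8.57 and 9.84 TPM under vehicle and at 2.45, 3.46 and 3.59 TPM with Compound 10. Lif-202, which starts at 4257557 near the promoter window shown above, was at 2.67 and 2.25 TPM under vehicle and at 1.95, 3.73 and 2.68 TPM with the compound. The compound libraries lay below both vehicle libraries for Lif-201 and overlapped them for Lif-202. Lif-201 made up 76.2% and 78.5% of Lif TPM in the vehicle libraries and 45.1% to 57.2% in the compound libraries. At rest the picture differed. Lif-201 was at 0.058, 0.303 and 0.111 TPM under vehicle and at 0.061 and 0.067 TPM with Compound 10, which overlapped, while Lif-202 was at 0.410, 0 and 0.377 TPM under vehicle and at 0 in both compound libraries. These are kallisto's estimates from reads shared between the transcripts and were not tested.

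The chemokine Xcl1 (chromosome 1, 164931644 to 164935527, minus strand), or lymphotactin, attracts the XCR1-bearing dendritic cells that cross-present antigen. It showed the largest difference with Compound 10 in stimulated cells among the 9 tested members. Counts were 0 in each of the 3 unstimulated vehicle libraries and 1 and 3 in the unstimulated Compound 10 libraries. Stimulated vehicle libraries held 4.64 and 5.02 CPM (36 and 58 counts) and stimulated Compound 10 libraries 0.332, 0.428 and 0.708 CPM (3, 5 and 8 counts). The groups lay far apart, the highest compound library (0.708 CPM) being well below the lowest vehicle library (4.64 CPM).

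Xcl1 was 9.65-fold lower with the compound (-3.27 ± 0.55 on the log2 scale, adjusted p = 0.00251, edgeR's quasi-likelihood test), and it kept this call without any single library (values -3.63 to -3.08). Stimulation raised it at least 121-fold over the floor under vehicle. With Compound 10 the 16 stimulated against 4 unstimulated counts gave 2.68 ± 0.73 on the log2 scale (adjusted p = 0.0234, edgeR), a call that ended with the replicate number as a block (2.36, 0.0856) and without any of 5 libraries. Those were either unstimulated Compound 10 library (2.60 and 2.78), either stimulated vehicle library (2.68 and 2.68) and the third stimulated Compound 10 library (2.32), with adjusted p of 0.0554 to 0.137. The kit does not mark strand, and the opposite gene Gm20743 shares 98 of the 523 exonic bases of Xcl1. Gm20743 had 8 and 10 counts in the stimulated vehicle libraries and 0, 0 and 3 in the stimulated Compound 10 libraries.

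Xcl1 is also a product of NK cells and unconventional T cells. The 6 markers of NKT or gamma delta T cells summed to 2.47 to 2.90 CPM in unstimulated vehicle, 2.87 to 3.39 CPM in unstimulated Compound 10, 20.1 to 21.6 CPM in stimulated vehicle and 2.54 to 4.97 CPM in stimulated Compound 10 libraries. Nearly all of the rise was Cd160, a receptor gene that activated T cells also express, at 16.4 to 17.4 CPM in stimulated vehicle and 0.884 to 1.11 CPM in stimulated Compound 10 libraries. The lineage marker Zbtb16 did not exceed 0.1004 CPM in any library, and the delta chain gene Trdc was at 3.09 to 3.72 CPM in stimulated vehicle and 1.66 to 3.599 CPM in stimulated Compound 10 libraries. Tcrg-C2 (20 counts over all libraries) was at 0.346 to 0.386 CPM in stimulated vehicle and at 0 in stimulated Compound 10 libraries. Tcrg-C1 (12 counts) was at 0 to 0.258 and 0 to 0.257 CPM there. NK cell markers (8 genes) summed to 1.78 to 3.87, 3.26 to 4.15, 8.37 to 15.8 and 5.83 to 9.62 CPM in the 4 groups in the same order, mostly Prf1 and Eomes. Eomes was at 3.86 to 7.27 CPM in stimulated vehicle and 0.685 to 2.43 CPM in stimulated Compound 10 libraries (-1.64, adjusted p = 0.119, edgeR). Prf1 overlapped between them (4.51 to 8.31 and 3.80 to 6.85 CPM). The 2 CD8 genes, nearly all Cd8b1, summed to 10.5 to 10.6 CPM in stimulated vehicle and 2.54 to 7.20 CPM in stimulated Compound 10 libraries (Cd8b1 -1.04, adjusted p = 0.124, edgeR). The part of such cells in the Xcl1 level was not tested.

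Ccl3 and Ccl4 encode the CC chemokines MIP-1 alpha and MIP-1 beta, which attract monocytes and T cells. They lie 13228 bases apart on chromosome 11 with 0 genes between, on opposite strands (Ccl3 at 83647844 to 83649355, minus, and Ccl4 at 83662584 to 83664683, plus). Ccl3 had 0 to 2 counts in unstimulated vehicle and 0 and 6 counts in unstimulated Compound 10 libraries. After stimulation it was at 7.21 and 11.7 CPM under vehicle and at 9.06, 14.6 and 12.5 CPM with the compound, so the groups overlapped. Ccl4 was at 0.0466 to 0.201 CPM in unstimulated vehicle libraries, and at 58.3 and 86.9 CPM in stimulated vehicle and 61.9, 95.2 and 103.6 CPM in stimulated Compound 10 libraries, which also overlapped. Both rose with stimulation in each arm, by 7.67 ± 0.63 and 9.18 ± 0.46 under vehicle and by 6.79 ± 0.65 and 8.09 ± 0.48 with Compound 10 (log2). Without the second unstimulated Compound 10 library, which held most of the resting counts, the latter values became 10.55 and 9.30.

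Between the stimulated groups Ccl3 differed by 0.34 ± 0.43 (95% interval -0.59 to 1.28, adjusted p = 0.619, edgeR) and Ccl4 by 0.26 ± 0.30 (-0.40 to 0.92, adjusted p = 0.595, edgeR). A fall of Ccl4 as large as that of Lif, Il3 or Xcl1 lay outside its interval. The ratio of Ccl4 to Ccl3 was 9.97 and 9.17 in the vehicle libraries and 8.42, 8.06 and 10.2 in the compound libraries in TPM, so the groups overlapped. For Il3 and Csf2, the other close pair, the groups did not overlap, and the difference between the pairs was not tested.

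Il4 (chromosome 11, 53602982 to 53618669, minus strand) and Il21 (chromosome 3, 37222759 to 37232636, minus strand) encode the cytokines that T helper 2 and follicular helper T cells use to direct B cells. Both stayed near the limit of detection. Il4 had 0, 2 and 0 counts in unstimulated vehicle, 0 in both unstimulated Compound 10, 4 and 2 in stimulated vehicle and 1, 1 and 0 in stimulated Compound 10 libraries. The ratio of stimulated Compound 10 to stimulated vehicle was 0.201 after scaling, with a 95% counting interval from 0.0199 to 1.12, so a difference was not detectable at this depth.

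Il21 had at most 1 count in unstimulated vehicle and at most 3 in unstimulated Compound 10 libraries. It had 8 and 20 counts in stimulated vehicle (1.03 and 1.73 CPM) and 1, 10 and 7 in stimulated Compound 10 libraries (0.111, 0.857 and 0.619 CPM). All 3 compound libraries lay below both vehicle libraries, yet the spread was wide. Il21 rose with stimulation under vehicle (6.08 ± 1.16, adjusted p = 0.00157, edgeR). The 28 stimulated against 1 unstimulated count gave a ratio of 108 with a counting interval from 17.9 to 4420. With Compound 10 it had 3.28 ± 1.14 (adjusted p = 0.0534, edgeR), and between the stimulated groups -1.35 ± 0.87 (95% interval -3.27 to 0.56, adjusted p = 0.303, edgeR).

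Il16 (chromosome 7, 83642825 to 83745726, minus strand) encodes the precursor of interleukin-16, a ligand of CD4 and CD9 that attracts CD4 cells. Its response to stimulation ran opposite to that of the other tested members. Unstimulated vehicle libraries held 132, 155 and 117 CPM and unstimulated Compound 10 libraries 132 and 93.8 CPM, which overlapped. Stimulated vehicle libraries held 29.4 and 37.8 CPM and stimulated Compound 10 libraries 58.8, 67.3 and 74.1 CPM. Stimulation lowered Il16 in both arms, and the stimulated compound libraries lay between the stimulated vehicle and the unstimulated libraries without overlap with either.

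Under vehicle Il16 fell by 2.00 ± 0.22 on the log2 scale (adjusted p = 3.11e-05, edgeR). With Compound 10 it fell by 0.75 ± 0.20 (1.69-fold, adjusted p = 0.0152, edgeR), a call lost without the first unstimulated (-0.50, 0.148) or the first stimulated Compound 10 library (-0.67, 0.0579). In stimulated cells it was 1.98-fold higher with the compound (0.99 ± 0.21, adjusted p = 0.00567, edgeR), a call lost without the first stimulated vehicle library (0.82, 0.0880). At rest it differed by -0.26 ± 0.20 (95% interval -0.69 to 0.18, adjusted p = 0.485, edgeR). Il16 was therefore 1 of 2 members whose response to stimulation itself differed with the compound, by 1.24 ± 0.29 (adjusted p = 0.0285, edgeR's interaction test), a call that ended without any 1 of 7 libraries (1.00 to 1.45, adjusted p 0.0525 to 0.154).

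The RNA came almost entirely from the short transcript Il16-203, with 7 exons from 83642848 to 83655495, rather than from Il16-201, the 19-exon form that starts at 83735523. Il16-203 was at 73.6, 89.7 and 56.9 TPM in unstimulated vehicle, 70.4 and 44.4 TPM in unstimulated Compound 10, 8.62 and 11.9 TPM in stimulated vehicle and 18.5, 23.4 and 23.6 TPM in stimulated Compound 10 libraries. It made up 92.7% to 97.7% of Il16 TPM in the 10 libraries, and Il16-201 did not exceed 0.693 TPM. The promoter window printed for Il16 is that of the short form.

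**Figure D4:**
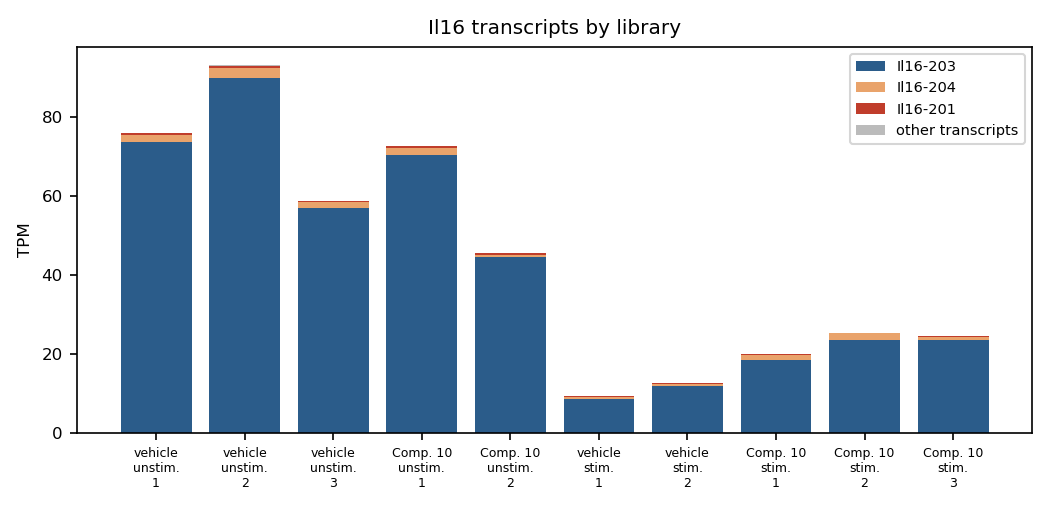
Il16 TPM of each of the 10 libraries, stacked by annotated transcript. Il16-203 makes up nearly the whole bar everywhere, at 44.4 to 89.7 TPM in unstimulated, 8.62 and 11.9 TPM in stimulated vehicle and 18.5 to 23.6 TPM in stimulated Compound 10 libraries.

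The protein-coding gene Stard5 lies on the opposite strand and shares 1202 of the 3183 exonic bases of Il16-203, or 37.8%. Stard5 had 834, 985 and 1364 counts in unstimulated vehicle, 1053 and 2140 in unstimulated Compound 10, 230 and 317 in stimulated vehicle and 670, 815 and 916 in stimulated Compound 10 libraries. Its log2 fold change was -0.61 with stimulation under vehicle and 1.39 for Compound 10 in stimulated cells (adjusted p = 0.0138 and 2.68e-04, edgeR). Under vehicle Stard5 and Il16 were thus both lower after stimulation, and in stimulated cells both were higher with the compound. With Compound 10 they parted, since Il16 fell with stimulation while Stard5 had 0.31 ± 0.16 and was not called (adjusted p = 0.196, edgeR). In unstranded libraries reads of the shared stretch cannot be assigned to one strand, and their part in the Il16 values was not tested.

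In unstimulated cells 1 of the 7 members with an estimate, Lif, was lower with Compound 10 and 0 were higher by edgeR's quasi-likelihood test, against 3.78% of all genes lower and 4.65% higher (8.43% in either direction). Without the second unstimulated Compound 10 library 0 members were called in this comparison or for the interaction with stimulation, and 325 of all genes in place of 1215. At an unadjusted p under 0.05 there were 2, Lif and Xcl1. Xcl1 had 4 counts over both compound libraries against 0 over 3 vehicle libraries (adjusted p = 0.0859, edgeR), and Ccl4 had 18 against 9 counts (1.35 ± 0.69, adjusted p = 0.267). Of those 18 counts of Ccl4, 16 came from the second Compound 10 library, which was also the deepest. Il3 and Csf2 had 0 counts in every unstimulated library and no estimate. In the test of whether the compound changed the response to stimulation, 1 member was higher (Il16) and 1 lower (Xcl1) of the 7, against 2.55% and 4.08% of all genes (6.63% in either direction). Xcl1 had 0 counts in each unstimulated vehicle library, so the size fitted for it is no bound. For Xcl1 (-6.78 ± 1.29, adjusted p = 0.0175, edgeR) the resting side of this contrast is the 4 against 0 counts just given, and the call was lost without the second unstimulated Compound 10 library (-6.47, 0.120) or without one of the stimulated vehicle libraries (-6.91, 0.0739 for the first and -6.76, 0.0821 for the second).

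Index numbers kept with the deposited libraries fall into 3 stretches, treated here as runs by assumption, and the first 2 hold both stimulated groups. In each of these 2 runs alone, Compound 10 against vehicle in stimulated cells had the same sign as over all libraries for each of the 9 tested members. The log2 ratios were -2.51 and -1.92 for Il3, -1.42 and -0.88 for Lif, -3.81 and -3.55 for Xcl1, 1.45 and 1.31 for Ifng and 1.00 and 0.83 for Il16. They were 0.88 and 0.35 for Csf2, 0.33 and 0.32 for Ccl3, 0.09 and 0.13 for Ccl4 and -3.22 and -1.01 for Il21. The libraries are the same ones, so these values are no separate evidence.

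The members were read against a wider list of 52 T cell cytokine and chemokine genes, of which 24 others were tested. Under vehicle 17 of these 24 rose with stimulation and 1 fell, against 19.5% and 19.4% of all genes. With Compound 10 in stimulated cells 2 of the 24 were higher and 6 lower, against 10.4% and 12.8% of all genes, with a median of -0.24 beside 0.04 over all genes. The 4 with the smallest adjusted p were all lower. Tnfsf14, the gene of the costimulatory ligand LIGHT, went from 18.1 ± 1.72 to 2.13 ± 0.80 CPM (-3.07 ± 0.43), a fall of the size of that of Xcl1, and Il2 had -3.10 ± 0.23. Fasl, the death receptor ligand, went from 168 ± 32.4 to 71.4 ± 8.49 CPM (-1.24 ± 0.18), and the lymphotoxin beta gene Ltb from 614 ± 36.1 to 214 ± 52.1 CPM (-1.52 ± 0.27). The other calls, named after their values were seen, were Mif (-0.82) and Penk (-2.68) among the lower and Tnf (0.94) and the neutrophil chemokine Cxcl2 (2.00) among the higher genes. Ifng stood between Tnf and Cxcl2 in size.

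**Figure D5:**
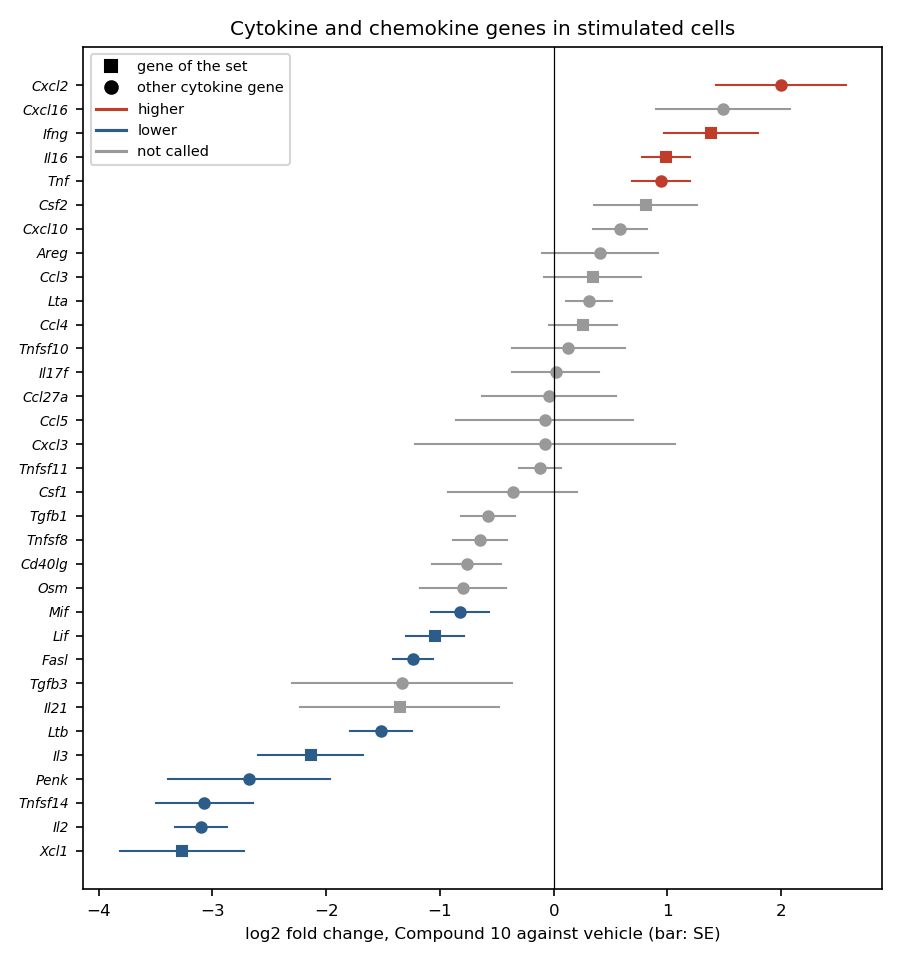
Log2 fold change of Compound 10 (n = 3) against vehicle (n = 2) in stimulated cells for the 33 tested genes of the cytokine and chemokine list, with SE bars. Squares are members of the set and circles the other 24 genes, coloured by call. Xcl1 (-3.27) is at the lower end beside Il2 (-3.10) and Tnfsf14 (-3.07), and Ifng (1.38) and Il16 (0.99) are among the 4 genes called higher.

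Of 17 receptor genes for these ligands 15 were tested, and with Compound 10 in stimulated cells 3 were higher and 2 lower, against 10.4% and 12.8% of all genes. Both chains of the interferon gamma receptor were higher, Ifngr1 (74.4 ± 0.373 to 185.5 ± 18.3 CPM, 1.32 ± 0.15, adjusted p = 1.57e-04, edgeR) and Ifngr2 (40.01 ± 1.87 to 101.7 ± 11.9 CPM, 1.35 ± 0.16). Il6st, the gp130 chain used by LIF, was lower (217 ± 9.25 to 73.3 ± 19.4 CPM, -1.56 ± 0.28), as was Cd9, a binding partner of IL-16 (143 ± 3.46 to 61.1 ± 5.03 CPM, -1.23 ± 0.16). In stimulated cells Ifng and its receptor chains were thus all higher, and Lif and Il6st both lower. At rest the ligands and receptors did not move together. Ifngr1 (1.30, adjusted p = 5.6e-04, edgeR) and Ifngr2 (0.88, 0.0069) were higher with the compound there, while Ifng was not called (0.53, 0.732). Il6st had 0.96 at rest (adjusted p = 0.0566, edgeR, not called), where Lif was lower (-2.56). Lifr, the other chain of the LIF receptor, had 1.13 ± 0.73 (0.904 and 1.94 CPM, adjusted p = 0.303, edgeR), and Cd4, the other partner of IL-16, had 0.52 ± 0.20 (adjusted p = 0.0799, edgeR), neither of them called. Lifr, Cd4 and the third receptor gene called higher, Il4ra (0.89), were named after their values were seen.

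Among 16 transcription factors that control helper T cell cytokine genes, 14 were tested, and 2 were higher and 0 lower with the compound in stimulated cells, against 10.4% and 12.8% of all genes. These were Gata3, the T helper 2 factor (125 ± 13.2 to 276 ± 36.2 CPM, 1.14 ± 0.25, adjusted p = 0.00684, edgeR), and Stat3 (421 ± 16.7 to 613 ± 35.5 CPM, 0.54 ± 0.14). The T helper 1 factor Tbx21, a known activator of Ifng, had -0.34 and was not called, an observation chosen after its value was seen. In unstimulated cells 6 of the 14 were higher with the compound and 0 lower, against 4.65% and 3.78% of all genes. In stimulated cells the next counts stand against the same 10.4% and 12.8%. Of 12 tested NFAT and AP-1 genes 2 were higher, Nfatc2 (1.65 ± 0.36) and Junb (1.20 ± 0.17), and 1 was lower, Nfatc1 (-1.42 ± 0.19). Of 12 regulators of cytokine mRNA decay 2 were higher, Zfp36 (1.45 ± 0.23) and Zc3h12a (0.73 ± 0.20), which encode tristetraprolin and regnase-1, and 2 were lower, Zfp36l1 (-1.23 ± 0.14) and Cnot1 (-1.08 ± 0.26).

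For 4 members the tested genes with the most similar pattern were sought by Pearson correlation of log2(CPM + 1) over the 10 libraries, which share the 4 groups, so high values are common. Ifng was closest to the immediate-early gene Egr1 (r = 0.993), Fam110a (0.990) and Asb2 (0.990), and Csf2 to Asb2 (0.997), Fam110a (0.993) and Samhd1 (0.991). Il3 was closest to Bend3 (0.997), Wsb2 (0.996) and the glycolytic enzyme gene Pgam1 (0.996), and Il16 to Ovgp1 (0.986), Tap2 (0.986) and Traf3ip3 (0.979). Ifng and Csf2 shared 2 of their 3 nearest genes, while Il3 and its neighbour Csf2 shared 0.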

How the data were processed

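RNA was measured in 10 libraries of 4 groups, mapped from the treatment, stimulation and number in the titles. The estimated counts and TPM values were made by the authors with kallisto after cutadapt on build mm10, per the submitters' processing notes and the file headers, and were deposited per transcript. The sources used here give no tool versions. The Clontech SMART-seq kit, per the labels' protocols, does not mark strand, and kallisto divides reads among compatible transcripts.

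Transcripts were matched to GENCODE M21, which placed 108214 of 109617. The remaining 1403, with 0.507% to 0.671% of a library's counts, were dropped. Gene values are sums of the estimated counts, rounded to whole numbers. All libraries entered 1 edgeR 4.0.16 quasi-likelihood fit (limma 3.58.1, R 4.3.3) with TMM factors and the filterByExpr filter, which kept 14417 of 45321 genes. P-values were adjusted by Benjamini-Hochberg. SEs come from the F statistic and understate the error of groups with few counts. Fitted changes against a group at 0 counts are no bound, so a floor of 3 counts over the group was used. Counting intervals are 95% Clopper-Pearson and, like the floors, cover counting error only. TPM was summed per gene and not tested. Alternatives were other scaling, DESeq2 1.42.0, no filter, blocks, 2 groups alone and each library left out. The fit was checked on simulated counts. No 2 libraries of a group agreed within sampling noise (chi-square per degree of freedom at least 13.7).

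The members, gene lists and tests were chosen with earlier results of these data known. Named genes are the members, up to 4 genes of each list with the smallest adjusted p among those called for Compound 10 in stimulated cells, and the 3 nearest genes of 4 members.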

Additional observations from a re-analysis of the deposited data

Results flagged for a closer look

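The effect of Compound 10 differed between stimulated and unstimulated cells for 2 members by edgeR's interaction test. For Xcl1 the difference was -6.78 ± 1.29 on the log2 scale (adjusted p = 0.0175). In stimulated cells the fit gave Xcl1 as 9.65-fold lower with the compound, and all 3 compound libraries lay below both vehicle libraries. The unstimulated side rests on 4 counts in 2 compound libraries against 0 counts in 3 vehicle libraries. Against a group at 0 counts the fitted size of this difference is no bound. For Il16 the difference was 1.24 ± 0.29 (adjusted p = 0.0285), from -0.26 in unstimulated to 0.99 in stimulated cells. The Il16 call was lost without any 1 of 7 libraries (adjusted p 0.0525 to 0.154 in those fits), with values between 1.00 and 1.45.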

How the results depend on the processing

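Over 719 refits of 41 member values, 677 kept direction and side of the threshold, 30 lost a call, 5 gained one and 7 changed sign. The sign changes were all in values that were not called. Leaving out 1 library at a time, Ccl4 in stimulated cells ran from -0.00013 (without the first stimulated vehicle library) to 0.59. The others turned without the second unstimulated Compound 10 library. Unstimulated values ran from -3.25 to 1.08 for Ifng, -2.59 to 1.75 for Ccl3 and -1.46 to 3.02 for Il21, and interactions from -1.41 to 2.93 for Ccl3, -2.21 to 0.14 for Ccl4 and -4.38 to 0.10 for Il21. Leaving out 1 library, called members numbered 1 to 5 for Compound 10 in stimulated cells (1 without the first and 2 without the second stimulated vehicle library), 0 to 1 in unstimulated cells and 0 to 2 for the interaction. In a fit of the 2 unstimulated groups alone 0 members were called, and DESeq2's Wald test called 1 for the interaction, giving Xcl1 no adjusted p. Il21 gained a call for stimulation with Compound 10 with upper-quartile factors (3.36, adjusted p = 0.0494), no filter (3.22, 0.0437), the run block (3.53, 0.0400), and without the third unstimulated vehicle (3.25, 0.0411) or first stimulated Compound 10 library (3.73, 0.0352).

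Deviations from group means correlated between -0.279 and 0.331 over 13 same-numbered pairs of libraries and exceeded 0.1 in 2. Over 12 pairs of the same assumed run they correlated between -0.0516 and 0.464 and exceeded 0.1 in 3. In groups of 2 libraries the deviations are equal with opposite sign, so these values cannot decide whether libraries were paired. With the replicate number as a block, Xcl1 lost its call for stimulation with Compound 10 (2.36), no other member changed side, and 5964, 4469, 3970, 1631 and 1504 genes were called in the 5 comparisons. The last was 956 without the block, 2167 with the run block, 1448 with no filter and 1692 by DESeq2. For Compound 10 in unstimulated cells 1215 genes became 2403 with the run block, 1900 by DESeq2 and 122 in the fit of 2 groups, and 325 to 753 when any 1 of 6 libraries was left out (each but the third unstimulated vehicle and the stimulated Compound 10 libraries). The interaction's count was 191 to 579 without any 1 of 6 libraries (the second unstimulated vehicle, second unstimulated Compound 10, both stimulated vehicle, and first and second stimulated Compound 10 libraries). With no scaling the unstimulated split of 670 higher and 545 lower genes became 470 and 637, and the interaction's 368 and 588 became 527 and 314 (494 and 476 with upper-quartile factors), while no member changed sign. Depth limited Il4, with at most 6 counts a group, and resting Xcl1, with at most 4.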
